A study of Mus musculus with 8 samples.

Results

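Axon guidance genes encode the ligands that steer growing axons and migrating neural cells, and the receptors that read them. The genes described here were chosen by symbol: class 3 to 7 semaphorins, plexins, neuropilins, Slits, Robos, netrins and netrin-G, Dcc and the Unc5 receptors, ephrins and Eph receptors. The choice gave 72 of the 18193 genes on the array, each read from whichever of its probe sets was brightest on average. Of these, 37 encode ligands and 33 receptors, and 2 matched by name only: Unc5cl, which is no netrin receptor, and the antisense RNA Plxna4os1. Ephb2 was not analysed here.

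RNA came from secondary neurospheres, free-floating clusters of forebrain neural stem and progenitor cells passaged once. There were 4 arrays from FoxO3 null mice (FoxO3-/-) and 4 from wild type mice (FoxO3+/+), all of the FVB/N strain, and the study asks how the transcription factor FoxO3 maintains adult neural stem cells. The medium of both genotypes held EGF and bFGF, each at 20 ng/ml, and spheres were collected on day 6. Titles number the arrays within set 1 and set 2, with 2 arrays of each genotype per set. The labels say neither what a set is nor whether arrays came from separate cultures or mice, so that p-values speak only of the spread from array to array, possibly a technical one.

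Most guidance ligands are secreted or held on a neighbouring cell, and receptors turn their binding into changes of the cytoskeleton. Semaphorins act through plexins, with neuropilins as co-receptors of most class 3 members. Slits act through Robos, netrins through Dcc and Unc5 receptors, and ephrins through Eph receptors, which are receptor tyrosine kinases. In the adult forebrain, members of these families act in the germinal zone beside the lateral ventricles and on the neuroblasts that leave it for the olfactory bulb.

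Foxo3 checks the labels. Its 2 brightest probe sets were lower in every FoxO3 null array than in every wild type array, with log2 differences of -1.17 and -1.07 (limma adjusted p = 0.000649 and 0.0021), while the remaining one, which is dim, was higher by 0.33 in FoxO3 null arrays, also without overlap (5.49 to 5.63 in FoxO3 null and 5.06 to 5.49 in wild type arrays), and did not pass (adjusted p = 0.11). Of the stem and progenitor markers, 7 of 7 lay above 6.03 on the log2 scale, the 95th percentile of 39 olfactory receptor genes. Only 1 of 5 endothelial, 1 of 6 pericyte and fibroblast and 1 of 5 microglial markers did. So did 55 of the 72 guidance genes, beside 12062 of all 18193 genes. The mean levels of 4 cell type lists were lower in FoxO3 null arrays than in wild type arrays of the same set, without overlap in either set. Over both sets they spanned 9.35 to 10.02 in FoxO3 null and 9.74 to 10.36 in wild type arrays for oligodendrocyte progenitor markers, and 10.12 to 10.63 in FoxO3 null and 10.30 to 10.84 in wild type arrays for astrocyte markers. Stem and progenitor markers spanned 10.82 to 10.92 in FoxO3 null and 10.86 to 11.02 in wild type arrays, and neuronal markers, of which 5 of 11 lay above the olfactory receptor level, 7.06 to 7.29 in FoxO3 null and 7.23 to 7.33 in wild type arrays. Y-linked genes were also lower within each set (6.88 to 8.09 in FoxO3 null and 7.66 to 8.35 in wild type arrays), and the dim endothelial list was higher (5.60 to 5.72 in FoxO3 null and 5.43 to 5.66 in wild type arrays). With arrays exchanged only within their set, each of these 6 lists gave an exact permutation p of 0.0556 (two-sided), the smallest which that test allows. With all 8 arrays exchanged, which ignores set, the exact p lay between 0.0857 and 0.314. In the limma fit over all genes 4 of 6 oligodendrocyte progenitor markers passed as lower, Pdgfra at -0.67, Gpr17 at -0.66, Cspg4 at -0.56 and Sox10 at -0.27 (adjusted p = 0.00598, 0.0176, 0.00893 and 0.0264). So did 2 of 8 astrocyte and 1 of 11 neuronal markers, while of 7 stem and progenitor markers 1, Nes, passed as higher. The remaining oligodendrocyte progenitor markers, Olig1 at 0.05 and Olig2 at -0.04, did not pass (adjusted p = 0.701 and 0.828). Each of these lists held genes of both signs. A positive log2 fold change was found in 1 of 6 oligodendrocyte progenitor, 3 of 8 astrocyte, 5 of 11 neuronal and 3 of 7 stem and progenitor markers. In bulk RNA fewer cells of a type and less RNA per cell cannot be told apart.

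Loss of FoxO3 left most guidance genes without a change that passed the test. In a limma fit over all 18193 genes with set as a term, 1 guidance gene rose in FoxO3 null spheres, Plxna2, and 1 fell, Plxnc1 (adjusted p under 0.05). Over all genes 0.429% passed as higher and 1.17% as lower. The guidance count is 2 of 72, or 2.78%, and is not read as more than the background. At an unadjusted p under 0.05, 8 guidance genes were higher and 5 lower, or 11.1% and 6.94%, against 8.32% and 7.18% of all genes. A positive log2 fold change was found in 45 of the 72, or 62.5%, against 54.2% of all genes. The median log2 fold change was 0.02 over the guidance genes and 0.0091 over all genes. The genotype groups did not overlap in 2 guidance genes, Plxna2 and Sema6d (2.78%, against 3.72% of all genes).

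**Figure D1:**
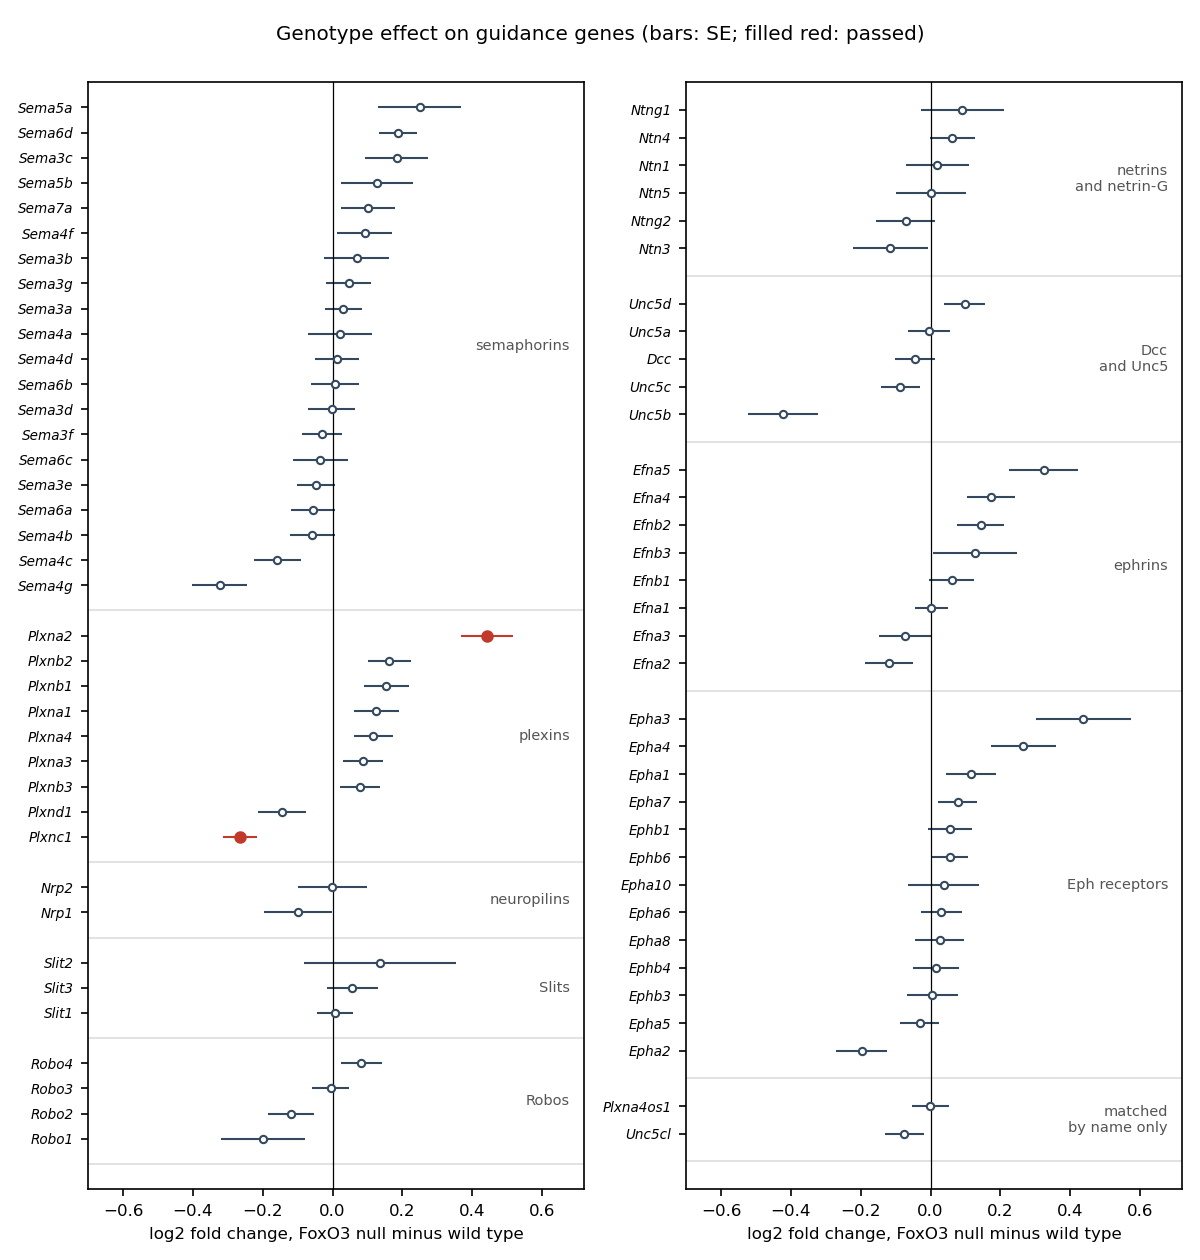
Log2 fold change (FoxO3 null minus wild type) of the 72 genes by family, with its standard error as bars, from the fit with set as a term. Plxna2 at 0.44 and Plxnc1 at -0.27, filled in red, are the 2 that passed, and the others lie between -0.42 and 0.44.

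Plxna2 encodes plexin A2, a receptor for class 6 semaphorins and, with neuropilins, for class 3 semaphorins. It lies on chromosome 1 from 194619791 to 194816869 (GRCm38.p6). It measured 8.64 and 8.68 in set 1 and 8.77 and 8.89 in set 2 in FoxO3 null arrays, against 8.36 and 8.35 in set 1 and 8.36 and 8.13 in set 2 in wild type arrays (log2). Each FoxO3 null array lay above each wild type array. The means were 8.74 ± 0.11 in FoxO3 null and 8.30 ± 0.11 in wild type arrays (SD, n = 4 each), a log2 fold change of 0.44 ± 0.07 (SE), or 1.36-fold (limma adjusted p = 0.017). The rise was 0.31 in set 1 and 0.58 in set 2.

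Plxna2 is measured by 4 probe sets, and 3 of them passed as higher in the test of all 45037 probe sets. Probe set 1453286_at had 8.66, 8.79, 8.69 and 8.74 in FoxO3 null arrays, against 8.26, 8.44, 7.99 and 8.13 in wild type arrays, a log2 fold change of 0.51 ± 0.08 (SE, adjusted p = 0.0161). Its groups did not overlap either. Probe set 1451753_at gave 0.40 ± 0.06 (SE, adjusted p = 0.0227) and separated the genotypes within each set. The dim 1429772_at gave 0.07 (adjusted p = 0.853). Of 159 guidance probe sets 4 passed, 3 of Plxna2 and 1 of Plxnc1, while 0.802% of all probe sets passed. The call of Plxna2 was lost with no set term (adjusted p = 0.302), with the replicate block (0.0728), with arrays averaged within set and genotype (0.248) and with Y-linked expression as a covariate (0.611, log2 fold change 0.36). It was also lost without FoxO3 null array 2_1, FoxO3 null array 2_2 or wild type array 2_1 (adjusted p = 0.0501, 0.0562 and 0.0514).

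Plxnc1 encodes plexin C1, the receptor of semaphorin 7A, and lies on chromosome 10 from 94790866 to 94945015. It had 9.70 and 9.75 in set 1 and 9.36 and 9.32 in set 2 in FoxO3 null arrays, against 9.96 and 9.91 in set 1 and 9.65 and 9.66 in set 2 in wild type arrays. Within each set both FoxO3 null arrays lay below both wild type arrays, but the genotypes overlapped across sets because set 2 was lower by 0.33 ± 0.05 (SE). The means were 9.53 ± 0.22 in FoxO3 null and 9.80 ± 0.16 in wild type arrays (SD, n = 4 each). The log2 fold change was -0.27 ± 0.05 (SE), which left 0.832 of the wild type signal (limma adjusted p = 0.0264). The fall was -0.22 in set 1 and -0.32 in set 2.

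All 6 probe sets of Plxnc1 had a negative log2 fold change, from -0.27 to -0.02, and 1 passed (1423213_at, adjusted p = 0.0475). The call was lost with no set term (adjusted p = 1), with the replicate block (0.0862), with array means (0.35), with the Y-linked covariate (0.743, log2 fold change -0.18) and without any 1 of 6 arrays. Of the fits without 1 array, it held without FoxO3 null array 1_2 or wild type array 1_2 (0.0462 and 0.0427), while the other 6 gave 0.0662 to 0.0955. Mean levels of oligodendrocyte progenitor, astrocyte, stem and progenitor, neuronal and Y-linked genes also lay lower within each set, as given above, and their part in the fall of Plxnc1 was not tested.

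**Figure D2:**
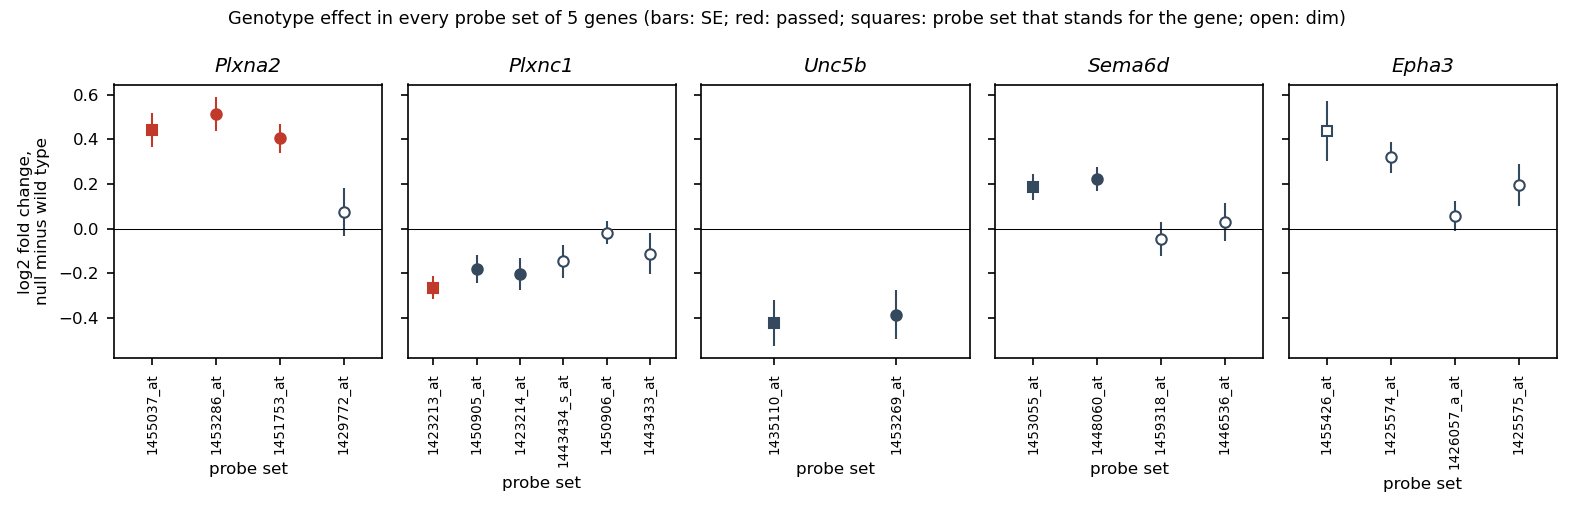
Log2 fold change (FoxO3 null minus wild type) of every probe set of 5 genes, with standard errors as bars. Red marks adjusted p under 0.05 over all probe sets, squares the probe set that stands for the gene and open symbols a mean at or below 6.03; 3 of 4 Plxna2 probe sets passed, all 6 of Plxnc1 were negative and both of Unc5b were near -0.4.

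The stretch shown for each of these 2 genes is the 250 bases before its annotated promoter start. It is shown because FoxO proteins bind DNA, so that the reader can inspect the sequence in which their core motif was looked for. These starts are not the outer ends of the gene spans given above. The Plxna2 stretch runs past 194619791, and the Plxnc1 stretch, on the minus strand, runs past 94945015. Both stretches thus lie partly inside those spans. Letters are lower case throughout, since no match was found to mark (RefSeq, GRCm38.p6, Plxna2 at chr1:194619579-194619828 on the plus strand and Plxnc1 at chr10:94944846-94945095 on the minus strand).
Plxna2: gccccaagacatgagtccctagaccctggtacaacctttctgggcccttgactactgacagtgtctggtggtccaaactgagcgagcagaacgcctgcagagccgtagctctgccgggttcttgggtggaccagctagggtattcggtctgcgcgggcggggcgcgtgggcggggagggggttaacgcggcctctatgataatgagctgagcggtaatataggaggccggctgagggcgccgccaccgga
Plxnc1: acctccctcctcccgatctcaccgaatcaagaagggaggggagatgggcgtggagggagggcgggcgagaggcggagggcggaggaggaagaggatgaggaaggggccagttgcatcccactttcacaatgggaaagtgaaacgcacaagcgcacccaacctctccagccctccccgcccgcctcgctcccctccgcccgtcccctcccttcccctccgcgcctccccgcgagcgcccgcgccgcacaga

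The letters GTAAACA or their reverse complement TGTTTAC were found in 0 of 77 promoters of 61 guidance genes, taken from 250 bases before to 50 after the start. They were found in 1199 of 32851 promoters of all genes, or 3.65%. Of the 72 genes, 61 were matched, by Entrez gene identifier. The absence says only that these letters are not in this window. Bases G and C made up 62.8% of the Plxna2 stretch and 68.8% of the Plxnc1 stretch, while the median of all promoters was 52.4%.

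The other plexins did not pass. All 4 A plexins and all 3 B plexins had a positive log2 fold change, with medians of 0.12 and 0.15, but besides Plxna2 only Plxnb2 and Plxnb1 had an unadjusted p under 0.05. Plxnb2, a receptor of class 4 semaphorins, had 11.55, 11.53, 11.38 and 11.36 in FoxO3 null arrays, against 11.22, 11.36, 11.36 and 11.22 in wild type arrays. The difference was 0.16 ± 0.06 (SE, adjusted p = 0.231), and the groups overlapped. Plxnb1, the receptor of semaphorin 4D, had 9.89, 9.80, 9.58 and 9.73 in FoxO3 null arrays, against 9.67, 9.56, 9.50 and 9.66 in wild type arrays, with a difference of 0.15 ± 0.07 (SE, adjusted p = 0.294). Here too the groups overlapped. Plxnd1, the receptor of semaphorin 3E, gave -0.14 ± 0.07 (SE, adjusted p = 0.349).

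The neuropilins gave no change that passed. Nrp1 had 8.57, 8.57, 9.04 and 9.14 in FoxO3 null arrays, against 8.83, 8.39, 9.39 and 9.10 in wild type arrays (log2 fold change -0.10 ± 0.10 (SE), adjusted p = 0.696). Its arrays differed by set rather than by genotype, higher in set 2 by 0.58 ± 0.10. Nrp2 had 6.52, 6.36, 6.70 and 6.52 in FoxO3 null arrays, against 6.72, 6.27, 6.45 and 6.66 in wild type arrays, and the groups overlapped throughout (adjusted p = 0.999). Its probe set 1435349_at gave -0.22 (adjusted p = 0.395 over all probe sets), with -0.51 in set 1 and 0.06 in set 2. The dim 1456778_at and 1447343_at gave 0.06 and 0.10.

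Of 20 semaphorins, 0 passed, 12 had a positive and 8 a negative log2 fold change, and the median was 0.02. At an unadjusted p under 0.05, 1 was higher and 2 were lower. Sema4g, a transmembrane class 4 semaphorin, had 7.96, 7.85, 8.14 and 8.05 in FoxO3 null arrays, against 8.18, 8.02, 8.67 and 8.43 in wild type arrays. Within each set both FoxO3 null arrays lay below both wild type arrays. The log2 fold change was -0.32 ± 0.08 (SE), or 0.799 of wild type, and missed the threshold (adjusted p = 0.0779). It passed among genes brighter than the median (0.04), with a variance trend (0.0391) and with a random block (0.0297). The random block had a negative estimated correlation (-0.229), which narrows the standard error, so passing with it is not read as support.

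Sema6d, a transmembrane semaphorin that binds plexin A1, had 11.54, 11.51, 11.68 and 11.54 in FoxO3 null arrays, against 11.26, 11.41, 11.45 and 11.42 in wild type arrays. Each FoxO3 null array lay above each wild type array, by a small margin. The log2 fold change was 0.19 ± 0.05 (SE, adjusted p = 0.139), with 0.19 in set 1 and 0.18 in set 2. Its second probe set above the olfactory receptor level, 1448060_at, also separated the groups and gave 0.22 ± 0.05 (SE, adjusted p = 0.103 over all probe sets). Sema6d passed with a variance trend (adjusted p = 0.028) and with a random block (0.0476), the latter with the same negative correlation and likewise not read as support.

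Ligands known to act through the 2 plexins that passed did not pass themselves (these genes, like the others given below with no value per array, were chosen after their values were seen). Sema7a, the ligand of plexin C1, had a log2 fold change of 0.10 ± 0.08 (SE, adjusted p = 0.588). Sema6a, a ligand of plexin A2, gave -0.06 ± 0.06 (SE, adjusted p = 0.739) in the probe set that stands for it, while its other 2 probe sets gave 0.17 and 0.24 (adjusted p = 0.253 and 0.251), so that probe sets of this gene disagreed in sign. Sema3a, the first known class 3 semaphorin, gave 0.03 ± 0.05 (SE, adjusted p = 0.839). The 7 class 3 semaphorins ranged from -0.05 to 0.18.

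**Figure D3:**
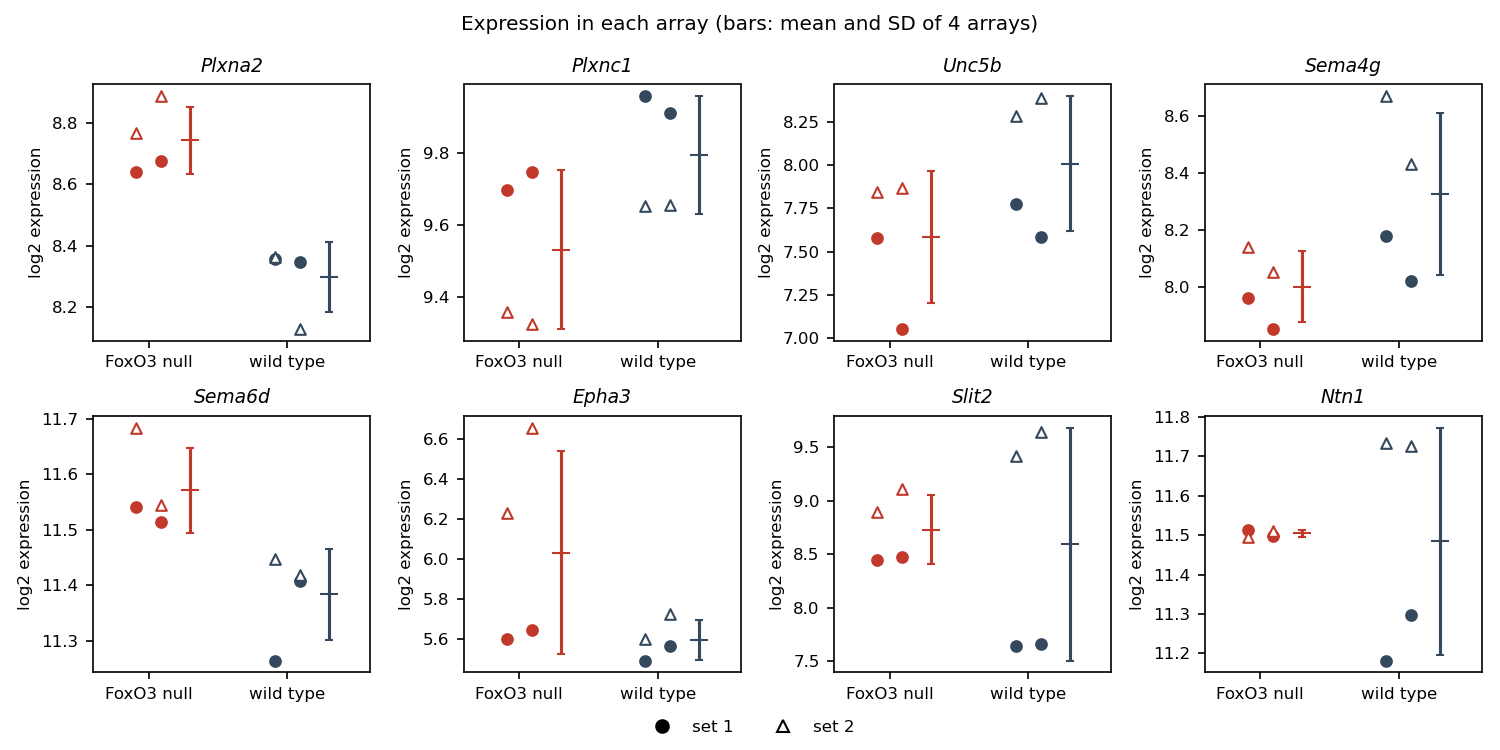
Log2 expression of 8 genes in each array, FoxO3 null in red on the left and wild type in dark blue on the right, filled circles for set 1 and open triangles for set 2, with the mean and SD of 4 arrays beside them and a separate y axis per gene. Plxna2 and Sema6d separated the genotypes in all arrays, Plxnc1 and Sema4g within each set, and Slit2 was higher in FoxO3 null arrays of set 1 and lower in those of set 2.

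Slit2, which encodes a secreted repellent of Robo-bearing axons and neuroblasts, was the guidance gene whose genotype difference itself differed between sets. It lies on chromosome 5 from 47981291 to 48307735. In set 1 it had 8.44 and 8.48 in FoxO3 null arrays, against 7.65 and 7.66 in wild type arrays. In set 2 it had 8.89 and 9.11 in FoxO3 null arrays, against 9.42 and 9.65 in wild type arrays. FoxO3 null spheres were thus above wild type by 0.81 in set 1 and below by -0.53 in set 2, and the wild type arrays were farther apart between sets than the FoxO3 null ones.

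The interaction of Slit2, set 2 minus set 1, was -1.34 (limma adjusted p = 0.00549). It was 1 of 72 guidance genes to pass that test, which 0.187% of all genes passed, and it passed without each array in turn (adjusted p = 0.00782 to 0.0485). Fitted over both sets the log2 fold change was 0.14 ± 0.22 (SE, adjusted p = 0.83), which averages opposite directions. In set 1 alone Slit2 passed as higher (adjusted p = 0.0162), and in set 2 alone it did not pass (0.0942). Both other probe sets were dim in the mean of all arrays. Probe set 1458140_at gave 0.08 in set 1 and -0.52 in set 2 (limma interaction adjusted p = 0.147). In set 2 it lay above the olfactory receptor level, with 6.29 and 6.38 in FoxO3 null and 6.90 and 6.80 in wild type arrays. In set 1 it lay below that level, with 5.22 and 5.15 in FoxO3 null and 5.10 and 5.10 in wild type arrays. Probe set 1451430_at gave -0.02 in set 1 and -0.06 in set 2. The mean of 5 oligodendrocyte markers had 9.02 and 9.14 in FoxO3 null arrays of set 1, against 8.56 and 8.52 in wild type arrays of set 1, and 10.61 and 10.99 in FoxO3 null arrays of set 2, against 10.86 and 10.72 in wild type arrays of set 2. It was thus higher in FoxO3 null arrays of set 1 and overlapped in set 2, and its part in the Slit2 values was not tested.

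The other Slits and the Robo receptors did not pass. Slit3 had 6.48, 6.55, 6.17 and 6.17 in FoxO3 null arrays, against 6.62, 6.46, 5.88 and 6.18 in wild type arrays (log2 fold change 0.06 ± 0.07 (SE), adjusted p = 0.785), and Slit1 gave 0.0066. Robo1, a Slit receptor and the only Robo gene above the olfactory receptor level, had 8.60, 8.55, 8.85 and 8.92 in FoxO3 null arrays, against 9.28, 8.78, 8.85 and 8.82 in wild type arrays. Its log2 fold change of -0.20 ± 0.12 (SE, adjusted p = 0.475) shrank to -0.05 without wild type array 1_1, the highest of the 8, and its other probe set above that level gave 0.04 (adjusted p = 0.922 over all probe sets). Robo2, another Slit receptor, had 4.48, 4.42, 4.38 and 4.29 in FoxO3 null arrays, against 4.37, 4.54, 4.56 and 4.59 in wild type arrays, values at the olfactory receptor level (adjusted p = 0.428).

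Among netrin receptors, Unc5b had the largest difference but missed the threshold. It encodes a repulsive netrin receptor that is also known from blood vessels, and lies on chromosome 10 from 60762594 to 60831581. It had 7.58, 7.05, 7.84 and 7.86 in FoxO3 null arrays, against 7.77, 7.58, 8.28 and 8.39 in wild type arrays. Within each set both FoxO3 null arrays lay below both wild type arrays, in set 1 by under 0.01 at the closest. The log2 fold change was -0.42 ± 0.10 (SE), or 0.746 of wild type (adjusted p = 0.0753), with -0.36 in set 1 and -0.48 in set 2. Its other probe set gave -0.39 (adjusted p = 0.168 over all probe sets).

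Unc5b passed in 7 of 21 other fits. Among them were set 2 alone (limma adjusted p = 0.0457), the replicate block (0.0486) and the fit without FoxO3 null array 1_1 (0.0113). The random block (0.022), with its negative correlation, and the crossed replicate block (0.035), added after seeing the data, were also among them. Neither is read as support. The replicate block pairs arrays by number, and equal numbers did not pair the arrays. Unc5d, a further member of that receptor family, had 4.61, 4.51, 4.53 and 4.61 in FoxO3 null arrays, against 4.36, 4.48, 4.58 and 4.44 in wild type arrays, all at the olfactory receptor level (adjusted p = 0.479). Dcc, the attractive netrin receptor, gave -0.04 ± 0.06 (SE, adjusted p = 0.777). Its probe sets 1441572_at and 1440487_at, both above the olfactory receptor level, gave 0.04 and -0.31 (adjusted p = 0.932 and 0.206 over all probe sets). In 1440487_at the difference was -0.58 in set 1 and -0.04 in set 2. Foxo3 itself is on chromosome 10, from 42181845 to 42276695, as are 4 guidance genes: Unc5b, Plxnc1, Efna2 (log2 fold change -0.12) and Ntn4 (0.06). Whether alleles carried along with the null allele differ there was not tested.

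Netrin ligands showed no shift that passed over both sets. Ntn4, a laminin-like netrin of basement membranes, had 9.82, 9.93, 10.00 and 10.14 in FoxO3 null arrays, against 9.70, 9.78, 10.16 and 9.98 in wild type arrays (log2 fold change 0.06 ± 0.06 (SE), adjusted p = 0.718). Its other probe set, 1450512_at, also above the olfactory receptor level, gave 0.18 ± 0.07 (SE, limma adjusted p = 0.285 over all probe sets). The difference there was 0.175 in set 1 and 0.182 in set 2. Ntn3 lay at the olfactory receptor level, with 5.26, 5.12, 4.75 and 5.08 in FoxO3 null arrays, against 5.03, 5.34, 4.99 and 5.32 in wild type arrays (adjusted p = 0.68). Both genes had overlapping groups. Ntn1, the founding netrin, chosen after its values were seen, had 11.51, 11.50, 11.50 and 11.51 in FoxO3 null arrays, against 11.18, 11.30, 11.74 and 11.73 in wild type arrays. The FoxO3 null arrays lay between the wild type arrays of the 2 sets, and the interaction did not pass (-0.49, adjusted p = 0.134) except with a variance trend (adjusted p = 0.0028). This pattern was not seen in the other Ntn1 probe set, 1422987_at, also above the olfactory receptor level. It gave 0.04 in set 1 and 0.17 in set 2 (limma interaction adjusted p = 0.896 over all probe sets). Its wild type arrays were lower in set 2 (6.21 and 6.24) than in set 1 (6.90 and 7.02).

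**Figure D4:**
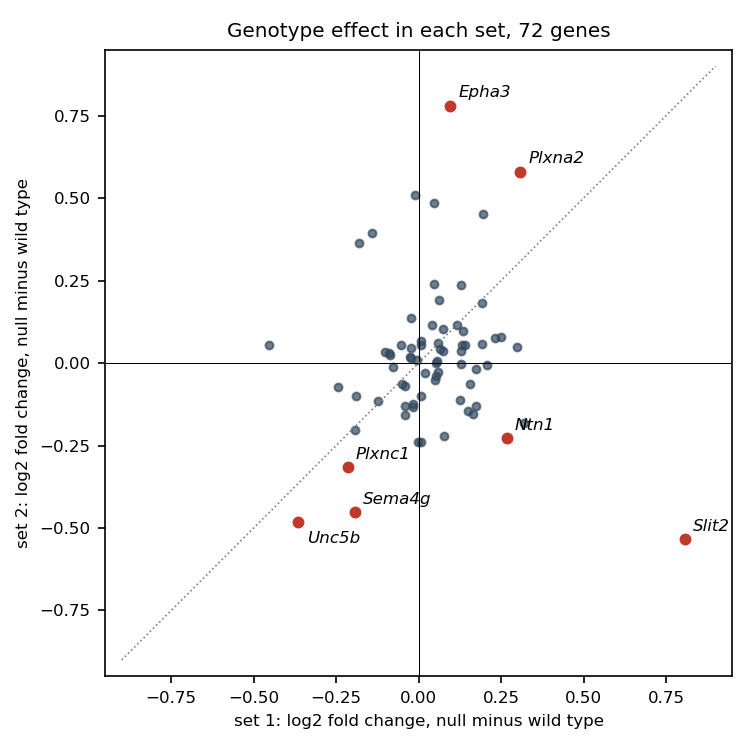
Log2 fold change (FoxO3 null minus wild type) in set 1 on the x axis and in set 2 on the y axis, 1 point per gene, with equal values on the dotted line and 7 genes named in red. Plxna2, Plxnc1, Unc5b and Sema4g lie near the line, and Slit2 lies far from it at 0.81 and -0.53.

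Of 8 ephrins, 0 passed and 6 had a positive log2 fold change (median 0.09). Efna5, an ephrin-A anchored to the membrane by a lipid, had 7.11, 7.27, 7.40 and 6.97 in FoxO3 null arrays, against 6.91, 7.09, 6.68 and 6.78 in wild type arrays. Both FoxO3 null arrays lay above both wild type arrays within each set, while the groups overlapped across sets, and the log2 fold change was 0.32 ± 0.10 (SE, adjusted p = 0.15). A second, dim probe set gave 0.0051. Efna4, likewise lipid-anchored, had 7.19, 6.997, 7.11 and 7.17 in FoxO3 null arrays, against 6.83, 6.76, 7.06 and 7.12 in wild type arrays, with a log2 fold change of 0.17 ± 0.07 (SE, adjusted p = 0.259). The 3 ephrin-B ligands, which span the membrane, ranged from 0.06 to 0.14 in the probe sets that stand for them. Another Efnb2 probe set above the olfactory receptor level, 1419638_at, gave 0.32 ± 0.10 (SE, limma adjusted p = 0.183 over all probe sets). Its difference was 0.08 in set 1 and 0.57 in set 2. The remaining Efnb2 probe sets, 1449548_at and 1449549_at, gave 0.09 and 0.06.

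Of 13 Eph receptors, 0 passed and 11 had a positive log2 fold change, with a median of 0.04. Epha3, a receptor of ephrin-A ligands, had 5.60, 5.64, 6.23 and 6.66 in FoxO3 null arrays, against 5.49, 5.56, 5.60 and 5.73 in wild type arrays. The FoxO3 null arrays of set 2 stood above all others. The log2 fold change was 0.44 ± 0.14 (SE, adjusted p = 0.157), with 0.10 in set 1 and 0.78 in set 2 (interaction adjusted p = 0.218). All 4 probe sets of Epha3 had means at or below the olfactory receptor level; one of them, 1425574_at, had 5.09, 5.30, 5.12 and 5.29 in FoxO3 null arrays, against 4.99, 4.93, 4.81 and 4.78 in wild type arrays, which did not overlap (0.32 ± 0.07 (SE), adjusted p = 0.0745 over all probe sets).

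Epha4, a receptor of both ephrin classes, had 7.50, 7.33, 7.62 and 7.51 in FoxO3 null arrays, against 7.30, 7.45, 7.14 and 7.02 in wild type arrays. The genotypes overlapped in set 1 and were apart in set 2, and the log2 fold change of 0.27 ± 0.09 (SE) did not pass (adjusted p = 0.204). All 5 probe sets of Epha4 had a positive log2 fold change, from 0.05 to 0.31. Epha2, known in epithelia and progenitor cells, had a log2 fold change of -0.20 ± 0.07 (SE, adjusted p = 0.234). The 4 EphB receptors analysed ranged from 0.0055 to 0.06.

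A second list held 69 further guidance genes, 22 other cues and receptors and 47 intracellular effectors, of which 66 were measured. Of the 22 cues and receptors, 3 fell (13.6%, against 1.17% of all genes) and 0 rose (against 0.429%), while 15 had a negative log2 fold change (68.2%, against 45.8% of all genes). Over all 66 measured genes of the second list 3 fell, or 4.55%, and 54.5% had a negative log2 fold change. The list was chosen with earlier results of these data known, so these shares are not read as more than the background. Dscam, a cell adhesion protein known as a netrin receptor, had 8.53, 8.69, 8.63 and 8.38 in FoxO3 null arrays, against 8.96, 8.997, 8.93 and 8.999 in wild type arrays. The groups did not overlap, and the log2 fold change was -0.42 ± 0.07 (SE), or 0.749 of wild type (limma adjusted p = 0.0141). It passed without each array in turn but wild type array 2_1 (adjusted p = 0.0514), whose absence left 0 of the 3 calls. Of 21 other limma fits Dscam passed in 14, with log2 fold changes from -0.46 to -0.11 and an adjusted p of up to 0.617.

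Draxin, a secreted antagonist of netrin signalling that binds Dcc, had 8.19, 8.02, 8.70 and 8.43 in FoxO3 null arrays, against 8.67, 8.53, 8.88 and 8.85 in wild type arrays. Both FoxO3 null arrays lay below both wild type arrays in each set, and the log2 fold change was -0.40 ± 0.08 (SE, limma adjusted p = 0.0331). Lrrc4c, which encodes the netrin-G1 ligand NGL-1, had 8.35, 8.52, 8.83 and 8.79 in FoxO3 null arrays, against 8.77, 8.81, 9.05 and 9.05 in wild type arrays. It fell by 0.30 ± 0.06 on the log2 scale (SE, limma adjusted p = 0.0288), and was lower in both sets. Draxin and Lrrc4c each passed without 1 of the 8 arrays only, and with the replicate block they missed the threshold (adjusted p = 0.0549 and 0.0728), as they and Dscam did with the Y-linked covariate (0.172, 0.426 and 0.444). Of 44 effectors, 0 passed in limma at an adjusted p under 0.05, with a median log2 fold change of 0.0073. Chn2, a Rac inhibitor of the chimaerin family, had the smallest p among them (-0.21 ± 0.07 (SE), adjusted p = 0.195), followed by Srgap2, a Slit-Robo GTPase-activating protein (0.13 ± 0.05 (SE), adjusted p = 0.303), and Ablim1, an actin-binding LIM protein (-0.16 ± 0.07 (SE), adjusted p = 0.337).

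Guidance genes differed between the 2 sets far more often than between the genotypes. Of the 72, 34 differed between sets in the same limma fit, 18 higher and 16 lower in set 2, a share of 47.2% against 43.8% of all genes. Efnb3, an ephrin-B, was higher in set 2 by 1.41 ± 0.12 (SE, adjusted p = 1.80e-05) and Sema7a by 0.85 ± 0.08 (SE). Sema5a, a semaphorin with thrombospondin repeats, was higher there by 0.82 ± 0.12 (SE), while Sema3f, a class 3 repellent, was lower by -0.91 ± 0.06 (SE, adjusted p = 2.97e-06). Sema3f had 11.42, 11.34, 10.60 and 10.46 in FoxO3 null arrays, against 11.54, 11.41, 10.49 and 10.51 in wild type arrays. In this probe set, 1438947_x_at, set 1 and set 2 were thus apart in both genotypes. Probe set 1420508_at, also above the olfactory receptor level, was lower in set 2 in FoxO3 null arrays only. Its wild type arrays had 6.18 and 6.23 in set 1 and 6.29 and 6.47 in set 2. The dim 1425840_a_at was lower in set 2 in both genotypes. Oligodendrocyte markers were higher in the same arrays of set 2 (10.61 to 10.99) than in those of set 1 (8.52 to 9.14). Their part in the set differences of guidance genes was not tested.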

How the data were processed

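Secondary neurospheres of 4 FoxO3 null and 4 wild type samples were hybridised to 1 Affymetrix array each. The deposited values are log2 expression values per probe set from RMA, as the submitters' processing notes state; RMA corrects background, gives all arrays 1 distribution and combines the probes of a set. For its version, the sources used here give none. RMA compresses differences of dim probe sets. Array medians lay between 6.28 and 6.31, and the number of arrays limits the precision.

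Of 45101 probe sets, 64 controls were left out. Platform annotation gave 1 symbol to 34945, several to 932 and none to 9160 of the remaining 45037. Genes took the probe set with the highest mean. Positions came from RefSeq (GRCm38.p6).

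Genotypes were compared over all genes with limma 3.58.1 in R 4.3.3 (lmFit, eBayes), two-sided, with set as an additive term and Benjamini-Hochberg adjustment, and passed at 0.05. The fit was tested on simulated data, with added effects larger than those of the guidance genes that passed and noise independent between arrays. It thus does not show how often effects of their size are found, nor how technical repeats would act. Values per array were named for all guidance genes that passed any test and for up to 2 further genes per family by smallest p. The olfactory receptor level, the set comparison and the permutation of marker means within sets were added after seeing the data. Genes and lists were chosen with earlier results of these data known. Equal numbers did not pair the arrays: number 1 minus number 2 correlated between genotypes at 0.118 in set 1 and -0.11 in set 2.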

Additional observations from a re-analysis of the deposited data

Results flagged for a closer look

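Slit2 had opposite genotype differences in the sets, and the difference itself was tested: set 2 minus set 1 gave -1.34 (limma adjusted p = 0.00549), from 0.81 in set 1 and -0.53 in set 2.

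In Plxna2 wild type array 2_2, at 8.13, stood below the other wild type arrays, with a gap of 0.926 of the group's range. Without it the log2 fold change was 0.37 (limma adjusted p = 0.0266). In Robo1 wild type array 1_1, at 9.28, stood above the others, with a gap of 0.865 of the range. Without it the log2 fold change was -0.05 (limma adjusted p = 0.83). Chance alone places about 1 in 20 groups beyond the limit used, and 40 groups were looked at.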

How the results depend on the processing

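The number of genes that passed, 291 as reported, was 3 with no set term (914 at an unadjusted p under 0.05), 133 with the replicate block, 63 in set 1 alone, 171 in set 2 alone, 456 among genes brighter than the median, 620 with a variance trend, 0 with the mean of the 2 arrays (1805 at an unadjusted p under 0.05), 796 with a random block (estimated correlation -0.229), 8 with the Y-linked covariate (which correlates with genotype within sets at -0.861) and 104 to 222 without 1 array. The guidance genes that passed as lower and higher, 1 and 1, became 0 and 0 with no set term (1 and 5 unadjusted), with array means (4 and 5) and with the Y-linked covariate (1 and 6); 1 and 0 with the replicate block and in set 2 alone, where the 1 is Unc5b; 0 and 1 in set 1 alone, where the 1 is Slit2; 3 and 1 among brighter genes; 3 and 2 with a variance trend and with a random block; and 0 to 1 each without 1 array. With the crossed replicate block in set 2, added after seeing the data, 206 genes passed, with 1 guidance gene lower, Unc5b, and 1 higher, Plxna2. The guidance median of 0.0235 was 0.0495 in set 1 and 0.0603 among brighter genes. A variance trend gave 2 guidance genes with an interaction, Slit2 and Ntn1. The number of guidance probe sets that passed, 4 as reported, was 0 with no set term (limma, 15 at an unadjusted p under 0.05). The number of other guidance genes that fell, 3 as reported, was 0 with no set term, in set 1, in set 2, with array means and with the Y-linked covariate, 1 with the replicate block, 5 with a variance trend and with a random block, and 0 to 2 without 1 array; 1 rose with a variance trend. The number of guidance genes that differ between sets, 34 as reported, was 15 among the 31 brighter than the median. That fewer genes, arrays or samples enter follows from the construction of these fits; the cause of the other shifts was not tested. No gene of either list that passed between genotypes in the fit over both sets changed sign in these fits. Slit2, which passed as higher in set 1 alone, had -0.53 in set 2 and turned sign against the fit over both sets in 4 of 21 fits. Dim probe sets limit what could be seen in 17 of the 72 genes.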
